A study of Mus musculus with 8 samples.

Results

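The genes described here are 10 regulators of the B lineage, namely *Il7r*, *Ikzf1*, *Ikzf3*, *Ebf1*, *Pax5*, *Foxo1*, *Irf4*, *Bach2*, *Pou2af1* and *Lef1*. They were taken by symbol from the 23284 gene symbols that both RNA-seq tables list, for their known roles, with earlier results of these data known. All 10 are in both tables. With a filter of 1 CPM (reads scaled to a common library size) in at least 1 of the 4 libraries of a cell type, 8 of the 10 could be tested in Id3-induced hematopoietic progenitor cells (IdHPCs) and 5 of the 10 in lymphoid-primed multipotent progenitors (LMPPs).

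A progenitor enters the B lineage in steps. The interleukin-7 receptor, whose alpha chain is encoded by *Il7r*, carries survival and growth signals through JAK1, JAK3 and STAT5. The E protein E2A, together with EBF1 and FOXO1, switches on early B cell genes, and PAX5 then fixes the B cell choice, while Ikaros (*Ikzf1*) opens lymphoid genes in progenitors well before that. IRF4 and BACH2 act in pre-B cells and again in mature B cells, where they weigh the plasma cell fate.

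The study asked what the loss of PCGF1, a subunit of a variant Polycomb repressive complex 1, does to gene expression in progenitors. IdHPCs are lines grown from mouse bone marrow LSK cells that express human Id3, an inhibitor of E proteins, and are kept on TSt-4 stromal cells with IL-7, SCF and Flt3-L. LMPPs were sorted from bone marrow and cultured with 4-OHT for 4 days. For LMPPs of an RT-qPCR experiment the paper describes this culture with TSt-4 cells, SCF, IL-7 and Flt3-L too. All 8 libraries carry the strain label B6CBAF1/J, and each cell type has 2 control libraries labelled Pcgf1 fl/fl and 2 libraries labelled Pcgf1 -/- (*Pcgf1*-KO), in which 4-OHT activates ERT2-Cre to delete exons 2 to 7 of *Pcgf1*. In another experiment of the study control IdHPCs were given ethanol in place of 4-OHT, and for the IdHPC RNA-seq controls the treatment is not named in the sources used here. The LMPP controls came from Pcgf1 fl/fl mice without ERT2-Cre and also received 4-OHT. The methods describe replicates as biologically independent but not whether these were separate lines or mice, so that p-values measure the spread between these samples.

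Reads on *Pcgf1* itself were examined first. On rows 2 to 7 of the gene, the rows of the deleted exons, control IdHPCs had 193 and 173 reads and *Pcgf1*-KO IdHPCs had 15 and 15. Of the 4 LMPP libraries 2, labelled *Pcgf1*-KO 1 and labelled control 2, went against their labels on these rows. Labelled control 1 had 84 reads and labelled *Pcgf1*-KO 1 had 76, whereas labelled control 2 and labelled *Pcgf1*-KO 2 had 0 each. LMPPs were therefore compared both by label and as the 2 libraries without reads on these exons against the 2 libraries with them. The second split uses no value of the 10 genes, but it is also the split by replicate number, so that anything else the number marks cannot be told apart from it. It is not a comparison of labelled genotypes.

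Distinct rows held between 15722759 and 25302206 reads in the IdHPC libraries and between 9618849 and 12578784 in the LMPP libraries. IdHPC *Pcgf1*-KO 2 stood apart from the other 7 libraries, where the last, 3′ row of a gene took 33.2% of the reads of 7657 well covered genes, against 24.1% to 28.9% elsewhere. Of 18 markers of stromal cells, 16 were tested in IdHPCs. Limma called 2 of them higher and none lower, where it called 0.269% of all genes higher and 0.261% lower. Of the 16, 15 had a positive log2 fold change, and their median was 0.97 over the 16, beside 0.01 over all genes. *Ctgf* was lower in *Pcgf1*-KO without passing (65.0 and 106 to 38.2 and 28.8 CPM, adjusted p = 0.0711, limma). The summed level of the markers was 3178 to 3685 CPM in controls and 5957 to 7558 CPM in *Pcgf1*-KO, with *Dcn* and *Lum* at 0 reads throughout. In LMPPs the same sum was only 42.1 to 65.4 CPM, and *Col3a1*, *Postn*, *Dcn* and *Lum* had no read. Mature myeloid markers, of which 10 of 11 were in the table, summed to 335 to 349 CPM in the LMPP libraries with *Pcgf1* exon reads and to 170 to 178 CPM in those without, and 4 of the 6 tested were lower, where 7.08% of all genes were. The part of these cells in the results below was not tested, and in bulk samples fewer cells of a type and less RNA per cell cannot be told apart. The progenitor markers *Kit*, *Flt3*, *Cd34*, *Ly6a*, *Sox4* and *Mycn* were each above 3 reads in all 8 libraries. This is a low bar, which 7 to 9 of 10 mature myeloid markers also passed in LMPPs. In LMPP libraries without *Pcgf1* exon reads *Ly6a* was lower than in those with them (4.14 and 2.80 against 14.75 and 14.69 CPM). *Kit* (384 and 352 against 228 and 258 CPM) and *Mycn* (28.9 and 34.4 against 17.0 and 17.9 CPM) were higher there. These 3 passed (adjusted p = 1.13e-04, 0.00131 and 0.00121 in that order, limma). Of 8 B lineage markers 7 were in the table, and their summed level was 24.6 and 88.4 CPM in control and 35.9 and 189 CPM in *Pcgf1*-KO IdHPCs, mostly from *Vpreb1*, *Igll1*, *Cd79a* and *Cd79b*, while *Ms4a1* had no read. In LMPPs this sum was 14.8 to 25.4 CPM.

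Levels of different genes were ordered as CPM per kb of exon. In control IdHPCs *Ikzf1* led with a mean of 80.2 CPM per kb, followed by *Il7r* at 22.4, *Ebf1* at 5.08 and *Irf4* at 2.77. *Foxo1* at 1.77, *Pax5* at 1.46 and *Bach2* at 1.15 CPM per kb came next, and these 3 did not differ beyond the spread of their libraries. *Lef1*, *Pou2af1* and *Ikzf3* were each below 0.03 CPM per kb on average. In *Pcgf1*-KO IdHPCs *Ikzf1* (57.6), *Il7r* (16.0) and *Ebf1* (4.26) kept the first places on the same scale, and *Irf4* (0.747) came after *Foxo1* (2.13) and *Bach2* (1.04). In LMPPs *Ikzf1* was again highest, at 41.8 CPM per kb in the labelled controls, but *Ebf1* (0.0349) was at the limit of detection and *Il7r* (0.719) stood below *Foxo1* (1.54) and *Bach2* (1.40). The plot of CPM by library shows these contrasts gene by gene.

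**Figure D1:**
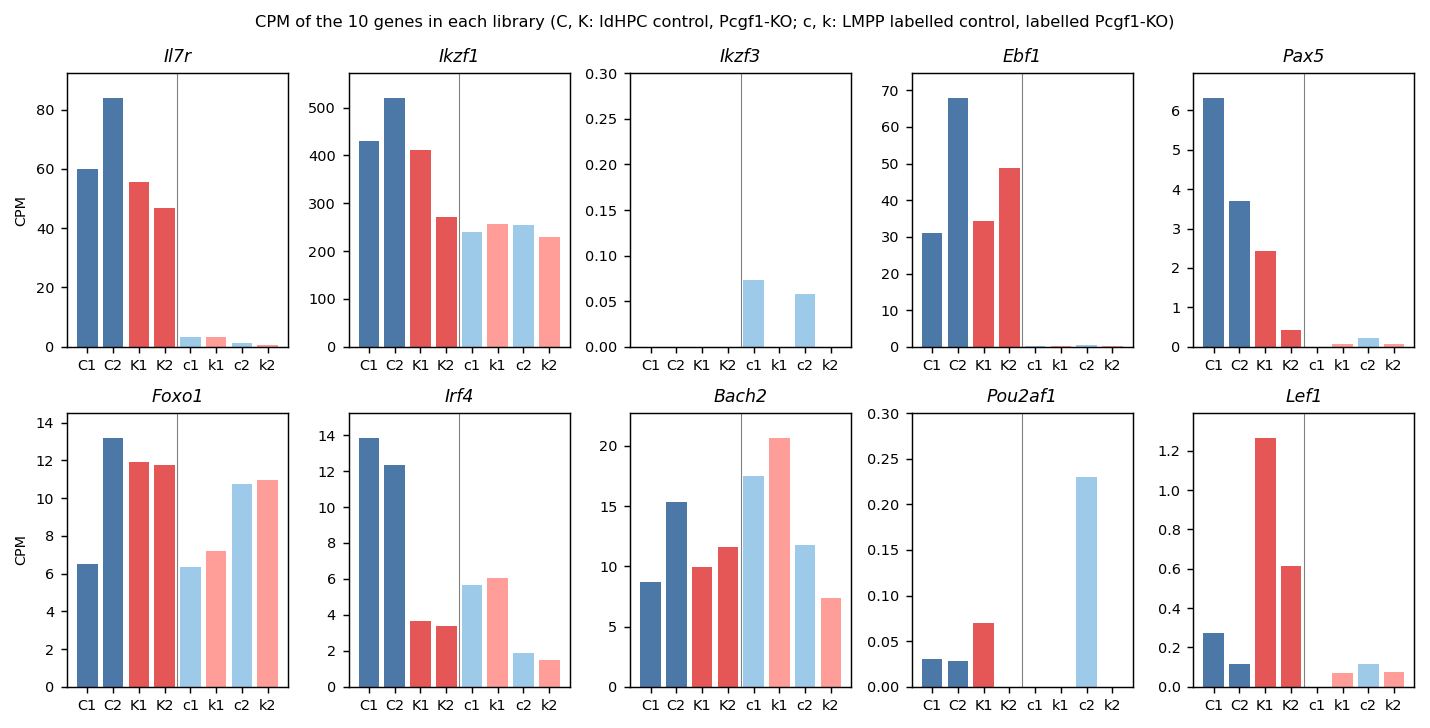
CPM (vertical axis, linear, a separate scale for each gene) of the 10 genes in each of the 8 libraries, 1 bar per library with no error bar; C and K are control and *Pcgf1*-KO IdHPCs, c and k are LMPPs labelled control and *Pcgf1*-KO, and numbers are replicates. *Irf4* is at 12.3 to 13.8 CPM in control and 3.39 to 3.65 CPM in *Pcgf1*-KO IdHPCs, and in LMPPs it is low in both replicate 2 libraries, whichever their label.

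*Il7r* encodes the receptor chain that binds IL-7, the cytokine added to both cultures. The gene lies on the minus strand of chr15:9435916-9459631 (mm9). Control IdHPCs had 60.0 and 83.8 CPM (1961 and 2926 reads) and *Pcgf1*-KO IdHPCs had 55.6 and 47.0 CPM (1583 and 998 reads). Both *Pcgf1*-KO values were below both controls, but the gap was smaller than the distance between the controls. The log2 fold change was -0.47 (SE 0.24, 95% interval -1.003 to 0.07, limma with p adjusted by Benjamini-Hochberg over all tested genes, adjusted p = 0.413), so that no difference was detected. It was -0.23 without control 2, -0.70 without control 1 and -0.81 without the 3′ row of each gene, none of which passed. The 3′ row of *Il7r* held 36.7 CPM in each *Pcgf1*-KO library and 37.5 and 55.6 CPM in controls, while the other rows held 18.9 and 10.2 CPM in *Pcgf1*-KO against 22.6 and 28.2 CPM in controls. The lowest value on these other rows was thus in the library with the raised 3′ share.

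In LMPPs the level of *Il7r* was near the filter. It was 3.47 and 3.23 CPM (47 and 47 reads) in the 2 libraries with reads on the deleted *Pcgf1* exons and 1.15 and 0.681 CPM (20 and 9 reads) in the 2 without. The 2 pairs did not overlap, and each pair holds a library labelled control and a library labelled *Pcgf1*-KO. The mean was 3.65-fold lower without *Pcgf1* exon reads, and the log2 fold change of -1.19 (SE 0.20) passed the test (adjusted p = 0.00283, limma). By label the log2 fold change was -0.22 (SE 0.56, 95% interval -1.59 to 1.16, adjusted p = 1 from limma). When the 3′ row was left out, 11 and 16 reads remained against 3 and 4, and the fold change of -0.66 no longer passed (adjusted p = 0.110, limma).

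The 250 bases before the annotated start of *Il7r* are shown because E-boxes, the CANNTG letters that E proteins bind, lie in them, and Id3 acts on E proteins. Promoter sequences are from RefSeq on GRCm38.p6, a later build than the tables, and 9 of the 10 genes matched. Capitals mark each E-box, searched on both strands, where the letters read as CANNTG either way.

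*Il7r* promoter, chr15:9529877-9530126, minus strand: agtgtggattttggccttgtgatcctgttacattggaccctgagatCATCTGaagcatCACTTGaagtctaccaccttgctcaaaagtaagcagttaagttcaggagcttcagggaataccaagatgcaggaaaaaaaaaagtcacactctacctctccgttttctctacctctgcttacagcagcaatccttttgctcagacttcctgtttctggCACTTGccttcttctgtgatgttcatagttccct

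This window held 3 E-boxes, and 66.2% of 32851 mouse promoter windows of the same length held at least 1. It held 4 copies of GGAA, the core letters of ETS factors such as PU.1, on either strand, as 93.5% of all windows held at least 1, and no CCCNNGGG, the letters of EBF1, present in 11.8% of windows.

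*Ikzf1* encodes Ikaros, a zinc finger factor required for lymphoid development, at chr11:11585006-11672929 (mm9). It was the most abundant of the 10 genes, with 430 and 520 CPM in control IdHPCs and 411 and 271 CPM in *Pcgf1*-KO IdHPCs. Again both *Pcgf1*-KO libraries lay below both controls, and the distance to control 1 was set mainly by *Pcgf1*-KO 2. The log2 fold change was -0.50 (SE 0.25, 95% interval -1.05 to 0.05, adjusted p = 0.390, limma), and it was -0.20 without *Pcgf1*-KO 2 (adjusted p = 0.794, limma) and -0.80 without *Pcgf1*-KO 1 (adjusted p = 0.0463, limma). On the 3′ row *Pcgf1*-KO 2 had 227 CPM, against 274 to 374 CPM in the other IdHPC libraries. On the other rows it had 44.0 CPM, against 134 to 146 CPM. The fit without *Pcgf1*-KO 1 thus has the library with the raised 3′ share as its only *Pcgf1*-KO library, and the part of that share was not tested.

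In LMPPs the levels of *Ikzf1* lay close together. They were 241 and 256 CPM in the libraries with *Pcgf1* exon reads and 255 and 230 CPM in those without. Its log2 fold change was -0.04 (SE 0.08) with a 95% interval of -0.22 to 0.15, and by label it was -0.03 with an interval of -0.32 to 0.26 (adjusted p = 0.814 and 1, limma). *Ikzf3*, which encodes Aiolos, the Ikaros relative of committed B cells, had no read in any IdHPC library and at most 1 read in an LMPP library. A count of 0 allows up to 0.0860 to 0.141 CPM in these IdHPC libraries, a limit of counting error only.

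*Ebf1* encodes the early B cell factor and lies at chr11:44430819-44821593 (mm9). IdHPCs expressed it clearly, with 31.2 and 67.9 CPM in controls (1018 and 2369 reads) and 34.3 and 48.8 CPM in *Pcgf1*-KO (976 and 1038 reads). The groups overlapped, since the controls lay on either side of both *Pcgf1*-KO libraries, and the log2 fold change was -0.17 (SE 0.34, 95% interval -0.93 to 0.59, adjusted p = 0.857, limma). Both replicate 2 libraries were above both replicate 1 libraries. The surrogate light chain genes *Vpreb1* and *Igll1*, known EBF1 targets named here after their values were seen, had the same order of replicates, with *Vpreb1* at 5.63 and 28.4 CPM in controls and 12.9 and 73.6 CPM in *Pcgf1*-KO, and *Igll1* at 3.74 and 31.0 CPM in controls and 9.94 and 90.5 CPM in *Pcgf1*-KO. Among the other tested EBF1 and PAX5 target and B cell surface genes, *Vpreb2*, *Cd79a*, *Cd79b*, *Cd72*, *Cd22* and *Dntt* also had this order. *Rag1*, *Rag2*, *Blnk*, *Ly6d*, *Blk* and *Cd24a* did not. In LMPPs *Ebf1* had 2 to 8 reads in a library and was not tested.

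*Pax5*, on the minus strand of chr4:44544017-44724318 (mm9), encodes the factor that commits cells to the B lineage. Control IdHPCs had 6.31 and 3.70 CPM (206 and 129 reads), whereas *Pcgf1*-KO IdHPCs had 2.42 and 0.423 CPM (69 and 9 reads). Both *Pcgf1*-KO values were below both controls, and the *Pcgf1*-KO libraries themselves were far apart. The mean was 3.52-fold lower and the log2 fold change was -1.41 (SE 0.42), which did not pass the test over all genes (adjusted p = 0.153, limma). With the replicate number as a block the same fold change passed (adjusted p = 0.00393, limma). The fold change was -2.04 without *Pcgf1*-KO 1 and -0.78 without *Pcgf1*-KO 2. Each of these fits has only 1 *Pcgf1*-KO library. Without *Pcgf1*-KO 1 it is the library with 9 reads and the raised 3′ share. Most reads of *Pax5* lay off the 3′ row in all 4 libraries, with at most 9.30% on it. LMPPs had between 0 and 4 reads of *Pax5* in a library.

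*Foxo1* encodes a forkhead factor that acts below the PI3K and AKT pathway and lies at chr3:52072259-52154031 (mm9). In IdHPCs its levels were 6.52 and 13.2 CPM in controls and 11.9 and 11.8 CPM in *Pcgf1*-KO, with overlap, for a log2 fold change of 0.31 (SE 0.33, 95% interval -0.41 to 1.04, adjusted p = 0.693, limma). LMPPs had 6.34 and 7.21 CPM (86 and 105 reads) with *Pcgf1* exon reads and 10.8 and 10.98 CPM (187 and 145 reads) without. These pairs did not overlap, and *Foxo1* was the single tested member that was higher without *Pcgf1* exon reads, by 0.61 on the log2 scale (SE 0.14, adjusted p = 0.0139, limma), a 1.60-fold higher mean. Leaving out labelled control 2 or labelled *Pcgf1*-KO 2 gave 0.63 and 0.60, with adjusted p of 0.0673 and 0.0694 (limma). By label the log2 fold change was 0.09 (95% interval -0.69 to 0.88).

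The promoter window of *Foxo1* is given for comparison with that of *Il7r*, since the 2 genes moved in opposite directions in LMPPs, with E-boxes again in capitals.

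*Foxo1* promoter, chr3:52268087-52268336, plus strand: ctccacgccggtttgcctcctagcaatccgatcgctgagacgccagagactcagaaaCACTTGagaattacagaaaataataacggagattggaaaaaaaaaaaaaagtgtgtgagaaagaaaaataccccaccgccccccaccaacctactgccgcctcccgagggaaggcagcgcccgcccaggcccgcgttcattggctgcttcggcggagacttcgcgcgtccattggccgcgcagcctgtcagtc

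It held 1 E-box, 2 copies of GGAA on either strand and 1 copy of the EBF1 letters.

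*Irf4* was the member with the clearest difference in IdHPCs. The gene encodes an interferon regulatory factor that acts in pre-B cells and in plasma cells, at chr13:30841095-30858796 (mm9). Control IdHPCs had 13.8 and 12.3 CPM (452 and 430 reads) and *Pcgf1*-KO IdHPCs had 3.65 and 3.39 CPM (104 and 72 reads). The replicates of each group were close to each other and the groups were far apart. The mean was 3.72-fold lower in *Pcgf1*-KO, and the log2 fold change of -1.64 (SE 0.27) passed the test (adjusted p = 0.0356, limma). Without *Pcgf1*-KO 2 it was -1.60 (adjusted p = 0.0425, limma), and without control 1 or control 2 it was -1.56 and -1.72 with adjusted p of 0.139 and 0.242 (limma). Without the 3′ row, which held most of its reads, the fold change was -1.34 and did not pass (adjusted p = 0.490, limma), with 142 and 119 reads left in controls and 41 and 11 in *Pcgf1*-KO.

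LMPPs had 5.68 and 6.04 CPM of *Irf4* (77 and 88 reads) in the libraries with *Pcgf1* exon reads. The libraries without such reads had 1.899 and 1.51 CPM (33 and 20 reads). As in IdHPCs, the pairs were apart by more than their replicates differed. The mean was 3.43-fold lower, and the log2 fold change was -1.34 (SE 0.17, adjusted p = 6.32e-04, limma). The difference lay mostly on the 3′ row, with 60 and 54 reads against 14 and 15, while the other rows had 17 and 34 against 19 and 5 reads, and without the 3′ row the fold change of -0.69 did not pass (adjusted p = 0.168, limma). By label, the log2 fold change was -0.06 with a 95% interval of -1.54 to 1.41 (adjusted p = 1, limma).

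The promoter window of *Irf4* is shown because this gene was lower in *Pcgf1*-KO IdHPCs and in the LMPP libraries without *Pcgf1* exon reads.

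*Irf4* promoter, chr13:30748983-30749232, plus strand: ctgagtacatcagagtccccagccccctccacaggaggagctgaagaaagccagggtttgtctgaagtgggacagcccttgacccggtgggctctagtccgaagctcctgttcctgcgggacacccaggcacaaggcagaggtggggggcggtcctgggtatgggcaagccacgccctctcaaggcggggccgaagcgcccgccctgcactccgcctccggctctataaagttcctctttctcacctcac

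It held no E-box and no EBF1 letters, and 2 copies of GGAA on either strand.

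*Bach2*, at chr4:32325779-32673083 (mm9), encodes a repressor that restrains plasma cell and myeloid genes. Its levels in IdHPCs were 8.70 and 15.4 CPM in controls and 9.97 and 11.6 CPM in *Pcgf1*-KO, so that the controls enclosed the *Pcgf1*-KO libraries. The log2 fold change was -0.10 (SE 0.31, 95% interval -0.78 to 0.59, adjusted p = 0.909, limma). LMPPs had 17.5 and 20.7 CPM (237 and 301 reads) with *Pcgf1* exon reads and 11.7 and 7.34 CPM (204 and 97 reads) without. The pairs were apart, with labelled *Pcgf1*-KO 2 the lowest library. The log2 fold change of -0.96 (SE 0.19) passed the test (adjusted p = 0.00715, limma). On the 3′ row 12.3 and 13.8 CPM stood against 6.79 and 4.24 CPM, and on the other rows 5.16 and 6.86 CPM against 4.95 and 3.10 CPM, where the fold change of -0.33 did not pass (adjusted p = 0.429, limma). *Pou2af1*, which encodes the B cell coactivator OCA-B, had at most 2 reads in an IdHPC library and at most 4 in an LMPP library.

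*Lef1* encodes a partner of beta-catenin that is used by early B cells and lies at chr3:130813389-130927274 (mm9). It had 9 and 4 reads in control IdHPCs and 36 and 13 in *Pcgf1*-KO IdHPCs, or 0.276 and 0.115 CPM against 1.26 and 0.612 CPM. Both *Pcgf1*-KO values were above both controls, but *Lef1* entered the test only through *Pcgf1*-KO 1, the one library above 1 CPM, so that the filter favoured a higher value in *Pcgf1*-KO. The log2 fold change on the CPM + 1 scale, which understates changes of genes this low, was 0.68 (SE 0.32, adjusted p = 0.367, limma). On the recovered reads it was 2.26 with edgeR exactTest (adjusted p = 0.0471), 2.26 with its quasi-likelihood test (adjusted p = 0.228) and 2.24 with DESeq2 (adjusted p = 0.321). LMPPs had at most 2 reads of *Lef1* in a library.

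The members' counts read as follows beside all genes. In IdHPCs 1 of the 8 tested members, *Irf4*, was lower and none was higher, where limma called 0.261% of 12273 genes lower and 0.269% higher. The *Pcgf1*-KO libraries lay below both controls for 4 members and above them for 1, against 21.3% and 25.6% of all genes. The 1 above was *Lef1*, whose direction the filter favoured. The median log2 fold change was -0.32 over the members and 0.01 over all genes. In LMPPs by label none of the 5 tested members was called, nor was any of 12153 genes (0% higher and 0% lower by limma, with 2 higher and 0 lower at an unadjusted p under 0.05). No member had labelled groups that did not overlap, against 5.92% of genes higher and 6.3% lower. Between the LMPP libraries without and with *Pcgf1* exon reads, 3 of 5 tested members were lower and 1 was higher, against 7.08% and 10.1% of genes. The same 3 and 1 members did not overlap, against 29.9% and 26.7% of genes.

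**Figure D2:**
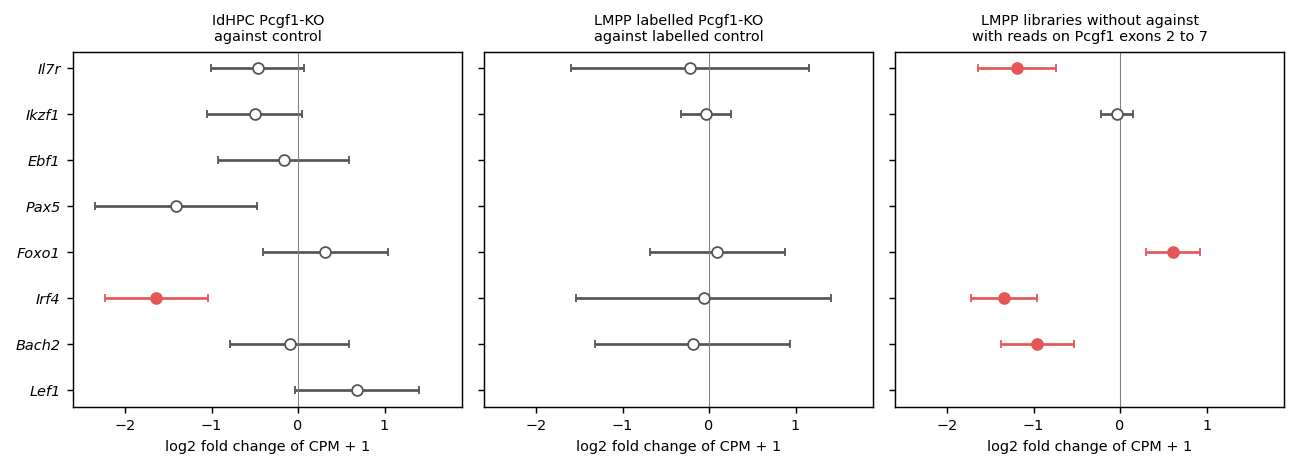
Log2 fold change of CPM + 1 (horizontal axis) with its 95% interval (bars) for each tested gene in the 3 comparisons, 2 libraries against 2 in each; filled red points passed an adjusted p of 0.05 and open points did not. *Irf4* passed in IdHPCs (-1.64) and in LMPPs split by *Pcgf1* exon reads (-1.34), and all 5 intervals by LMPP label cover 0.

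**Figure D3:**
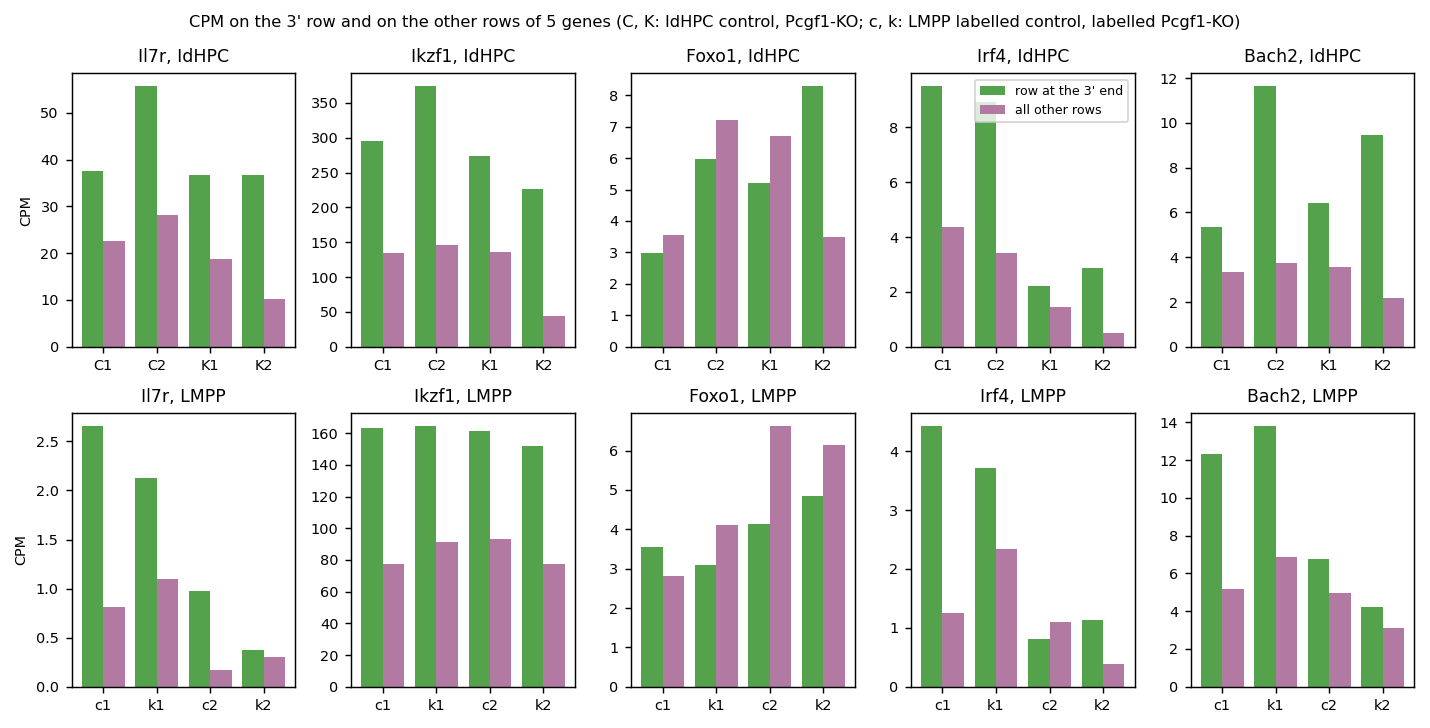
CPM (vertical axis, linear) on the row at the 3′ end (green) and on all other rows together (purple) of 5 genes in each IdHPC (top) and LMPP (bottom) library, 1 bar per library with no error bar. In IdHPC *Pcgf1*-KO 2 (K2) the other rows of *Ikzf1* were at 44.0 CPM while its 3′ row held 227 CPM.

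Genes that act with the members were listed by pathway, and the lists are described by counts alone. The list of IL-7 receptor signalling holds 24 genes, of which 23 were tested in IdHPCs and none passed. Limma called 0.269% of all genes higher and 0.261% lower there, the shares to set beside each IdHPC list. With so few calls over all genes, a list of this size without a call says little about its pathway. The list had a median log2 fold change of -0.14, beside 0.01 over all genes. Its most abundant genes there were *Socs2*, a feedback inhibitor of cytokine signals, at 632 and 613 CPM in controls and 637 and 720 CPM in *Pcgf1*-KO, and the cyclin gene *Ccnd2*, at 350 and 472 CPM against 310 and 296 CPM. The ligand gene *Il7*, named after its values were seen, had 0.429 and 0.401 CPM in controls and 2.07 and 1.79 CPM in *Pcgf1*-KO (adjusted p = 0.131, limma), in libraries where stromal markers were also higher, and it passed the filter only through these. In LMPPs split by *Pcgf1* exon reads 5 of 22 tested genes of this list were higher and 4 were lower, against 10.1% and 7.08% of all genes, the shares to set beside each LMPP list (median -0.11, beside -0.02 over all genes). The kinase gene *Jak3* rose from 165 and 191 CPM to 254 and 241 CPM and *Socs3* from 5.75 and 5.97 to 11.3 and 11.8 CPM, whereas *Socs1* fell from 4.79 and 4.60 to 2.47 and 2.20 CPM and *Socs2* from 8.48 and 10.8 to 5.93 and 6.13 CPM. *Stat5a* and *Stat5b*, which carry the receptor's signal, and *Jak1* were the other 3 that rose, and *Ccnd2*, from 492 and 509 to 388 and 372 CPM, and the survival gene *Mcl1*, from 134 and 127 to 107 and 110 CPM, were the other 2 that fell.

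B lineage co-regulators were 22 of 23 in the table and 19 were tested in IdHPCs, with none called and a median log2 fold change of -0.28. *Mef2c* was at 636 and 637 CPM in controls and 465 and 339 CPM in *Pcgf1*-KO (adjusted p = 0.197, limma), and *Myb* at 333 and 404 against 410 and 294 CPM. Without against with *Pcgf1* exon reads, 6 of 18 in LMPPs were lower and 3 were higher, with a median of 0.002. *Spib*, an ETS factor of lymphoid and dendritic cells, fell from 12.2 and 12.5 to 2.59 and 4.09 CPM, and *Irf8*, which acts in B cells and monocytes, from 545 and 557 to 355 and 338 CPM. *Gfi1*, a repressor, rose from 8.85 and 10.8 to 18.1 and 16.8 CPM, and the Ikaros relative *Ikzf2* from 20.6 and 23.1 to 41.1 and 31.3 CPM.

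Target genes of EBF1 and PAX5 and B cell surface genes were 20 of 21 in the table. In IdHPCs 1 of 14 tested was lower and none was higher, against 0.261% and 0.269% of all genes, with a median of 0.09. The one gene was *Blk*, a Src family kinase of B cells, at 29.3 and 87.0 CPM in controls and 0.702 and 4.09 CPM in *Pcgf1*-KO (log2 fold change -4.13, SE 0.55, adjusted p = 0.0139, limma). It did not pass without the filter (adjusted p = 0.195) or without the 3′ row (adjusted p = 0.231, both limma). In LMPPs split by *Pcgf1* exon reads 5 of 9 tested were lower and 1 was higher, and the median was -0.87. *Blnk*, the adaptor of the B cell receptor, fell from 7.96 and 6.73 to 1.78 and 2.20 CPM, *Ly6d*, a marker of B-biased lymphoid progenitors, from 37.6 and 35.3 to 14.9 and 14.6 CPM, and *Blk* from 2.21 and 2.54 to 0.633 and 0.833 CPM. *Cd22*, an inhibitory receptor, went from 0.811 and 1.44 CPM to 0 and 0.151 CPM. Of these 5, *Cd22* and *Blk* passed the 1 CPM filter only through the libraries in which they were higher. The filter thus favoured their direction, and the list median of -0.87 includes both. The fifth gene that fell was *Dntt*, which adds bases at antigen receptor joints, and *Cd24a* was the one that rose. The tested genes without a call, *Rag2*, *Cd72* and *Cd79b*, were at -0.27, -0.25 and -0.19 on the log2 scale. Mature myeloid markers were lower in the same 2 libraries.

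Of the Foxo family and FOXO1 targets, 12 of 14 were tested in IdHPCs and none passed (median -0.28). *Sesn1* was at 57.9 and 57.6 CPM in controls and 69.2 and 53.6 CPM in *Pcgf1*-KO, and *Cdkn1b* at 29.6 and 45.4 against 29.5 and 22.5 CPM. The LMPP libraries without *Pcgf1* exon reads had 7 of 13 higher and 3 lower (median 0.42). *S1pr1* rose from 3.54 and 3.02 to 9.49 and 8.18 CPM, the cell cycle inhibitor gene *Cdkn1b* from 39.5 and 38.5 to 72.2 and 65.7 CPM, and *Irs2* from 6.86 and 10.2 to 16.8 and 13.7 CPM, and *Foxo3* and *Foxo4* also rose. *Ccr7*, a homing receptor, fell from 7.004 and 8.85 to 2.30 and 2.73 CPM.

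The lists around the last members were smaller. None of 9 tested LEF1 partners and Wnt targets passed in IdHPCs (median 0.11), where *Ctnnb1* was at 309 and 319 CPM in controls and 353 and 254 CPM in *Pcgf1*-KO and *Tle3* at 222 and 191 against 190 and 147 CPM. In LMPPs split by *Pcgf1* exon reads 2 of 10 were higher and none was lower, against 10.1% and 7.08% of all genes (median 0.11), namely the corepressor gene *Tle2*, from 13.8 and 12.3 to 25.4 and 22.8 CPM, and *Tcf7l1*, from 0.221 and 0.686 to 2.07 and 1.59 CPM, which passed the filter only through the libraries in which it was higher. Of the BACH2, IRF4 and plasma cell genes, none of 11 tested passed in IdHPCs (median -0.17). *Igj*, which encodes the joining chain of antibodies, was at 547 and 504 CPM in controls and 308 and 316 CPM in *Pcgf1*-KO (log2 fold change -0.75, adjusted p = 0.115 from limma and 0.0326 from edgeR exactTest), and *Sdc1* was at 129 and 105 against 134 and 110 CPM. For LMPPs split by these reads, 2 of 10 were higher and 2 were lower (median 0.14). *Hmox1*, which encodes heme oxygenase, rose from 42.5 and 38.0 to 90.3 and 102 CPM, and *Maff* from 5.16 and 4.87 to 12.5 and 11.1 CPM. *Sdc1*, the plasma cell surface gene, fell from 34.6 and 35.8 to 22.9 and 23.8 CPM, and *Irf1* from 69.5 and 73.2 to 57.8 and 58.4 CPM. By LMPP label no gene of the 6 lists passed.

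**Figure D4:**
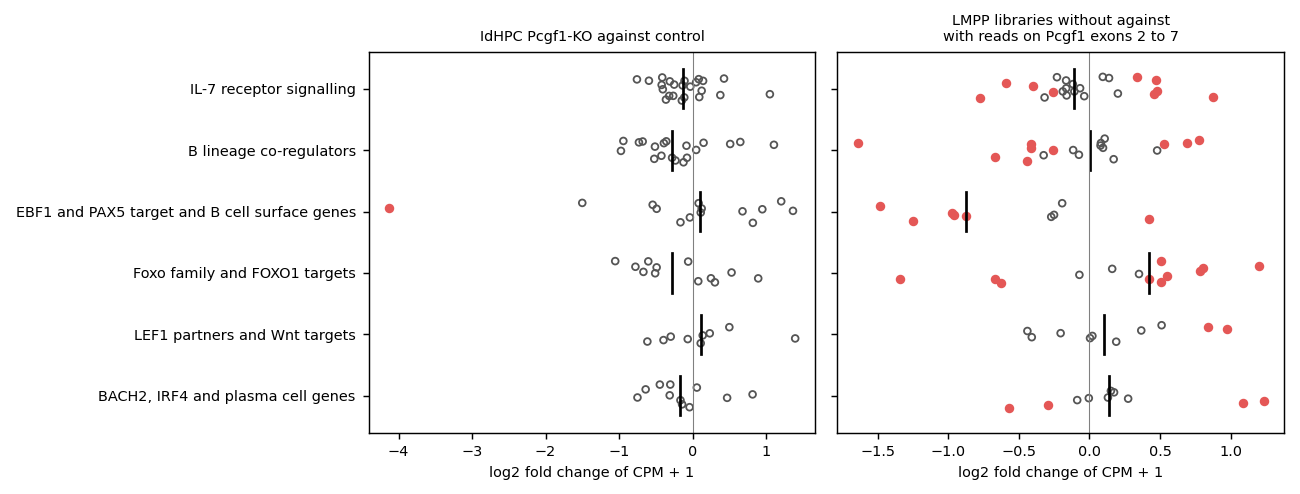
Log2 fold change of CPM + 1 (horizontal axis) of each tested gene (1 point) of the 6 pathway lists (rows) in IdHPC *Pcgf1*-KO against control (left) and in LMPP libraries without against with *Pcgf1* exon reads (right); red points passed an adjusted p of 0.05, black bars are list medians, and vertical spread is for display only. *Blk* at -4.13 is the single red point on the left, and the EBF1 and PAX5 target list has its median at -0.87 on the right. That median includes *Cd22* and *Blk*, which passed the 1 CPM filter in LMPPs only through the libraries in which they were higher.

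The genes whose levels over the 8 libraries were most like those of *Il7r* and of *Ikzf1* were sought among 11243 other genes tested in both tables, by the root mean square difference of log2(CPM + 1) centred within each cell type. For *Il7r* these were *Gpr183*, a chemoattractant receptor of B cells (0.10), and *Cpne5* (0.14). *Gpr183* had 1.81, 2.58, 1.23 and 0.988 CPM in IdHPC control 1, control 2, *Pcgf1*-KO 1 and *Pcgf1*-KO 2. Its LMPP levels were 3.69 and 3.84 CPM with and 0.978 and 0.606 CPM without *Pcgf1* exon reads. For *Ikzf1* they were 0610007P08Rik (0.02) and *Cflar* (0.03), an inhibitor of caspase-8. *Cflar* had 29.0, 37.3, 28.7 and 18.6 CPM in the 4 IdHPC libraries in the same order, and between 42.2 and 49.3 CPM in LMPPs, and in IdHPCs both genes were lowest in *Pcgf1*-KO 2.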

How the data were processed

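Poly(A) RNA-seq of 4 IdHPC and 4 LMPP libraries was used, 2 per labelled group. The authors mapped their reads on mm9 by HISAT2, took counts from Rsubread, and used edgeR for the CPM that they deposited. The submitters' processing notes name TopHat2 2.0.13 instead. Strand of the counting and the annotation are not given in the sources used here. The deposited CPM tables list exons (284716 rows), and exons of several transcripts recur. Rows with the values of the row before, in all 8 libraries and under the same symbol, were counted once and rows were summed per symbol. This dropped 26.6% of rows with reads. All values (100%) were whole multiples of 1 read within 1e-06, and a spanning read may count on several rows.

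Each table was fitted alone with limma 3.58.1 (R 4.3.3) on log2(CPM + 1), with a trend, for genes with 1 CPM or more in at least 1 of 4 libraries. P-values are two-sided and were adjusted by Benjamini-Hochberg over all genes tested, with a threshold of 0.05. Fold changes on this scale understate changes of low genes. Alternatives were a pseudocount of 0.1, other filters, a rescaling, no trend, edgeR 4.0.16 (exactTest and quasi-likelihood), DESeq2 1.42.0, each library left out, other row sums and the replicate block. The design had assumed gene tables. Tests were tried on simulated data. The floor was 3 reads, 0.0860 to 0.227 CPM. Intervals cover these samples only, and floors cover counting error only.

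The members and lists were chosen with earlier results of these data known. Named genes are all members and, from each list, at most 4 called genes of largest change or, in IdHPCs where none was called, the 2 most abundant. A few others are named as seen afterwards or as counts of called genes. Exon lengths and gene positions are those of GENCODE on NCBIM37 (mm9).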

Additional observations from a re-analysis of the deposited data

How the results depend on the processing

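With 2 libraries a group, counts of called genes moved much. In IdHPCs 33 genes were higher and 32 lower with limma. These became 0 and 0 without the filter, 127 and 63 after rescaling, 466 and 163 with edgeR exactTest, 341 and 153 with DESeq2, and 0 and 3 without the 3′ row. Higher genes were 77 with the edgeR quasi-likelihood test and 19 over all listed rows. Leaving out 1 library gave 0 to 237 higher and 14 to 581 lower genes. Without IdHPC control 2 there were 0 higher and 14 lower genes, without *Pcgf1*-KO 1 there were 237 and 581, and without *Pcgf1*-KO 2 there were 120 higher. For LMPPs split by *Pcgf1* exon reads, 1229 genes were higher and 860 lower, with 693 and 379 without the 3′ row, 547 lower with DESeq2, and 719 to 1221 higher and 528 to 751 lower with 1 library left out. The low ends were both without labelled control 2, and 566 were lower without labelled *Pcgf1*-KO 2.

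With the replicate block, 484 and 185 genes were called in IdHPCs and 3 higher in LMPPs by label, and *Pax5* passed in IdHPCs (-1.41, adjusted p = 0.00393, limma) as did *Irf4* (adjusted p = 5.12e-04). The differences between replicates 1 and 2 correlated across genes at 0.147 in IdHPCs and 0.705 in LMPPs. The labels do not say what a number marks, and in LMPPs the libraries of 1 number also shared the presence or absence of *Pcgf1* exon reads and the level of myeloid markers. In the split by *Pcgf1* exon reads the replicate number is the split and could not be a block. With the label as a block, chosen after seeing the data, 1167 genes were higher and 734 lower, the calls of *Foxo1*, *Il7r*, *Bach2* and *Irf4* held, and of the named genes of the lists *Irf1* lost its call (adjusted p = 0.144, limma).

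The fold change of *Irf4* in IdHPCs stayed between -1.91 and -1.34 in all 15 alternatives, and lost its call in 4, among them no filter (adjusted p = 0.197). In LMPPs split by *Pcgf1* exon reads, *Il7r*, *Bach2* and *Irf4* kept direction in all 15, and lost the call only without the 3′ row. There the fold changes were smaller, at -0.66, -0.33 and -0.69 in that order, and fewer reads remained. The part of each in the lost calls was not tested. *Foxo1* lost its call in 2. Among members without a call, *Pax5*, *Ikzf1*, *Il7r* and *Lef1* kept their sign in IdHPCs under every alternative that could be run, and the others did not. With 1 library left out, the IdHPC fold change ran from -0.72 to 0.38 for *Ebf1*, -0.14 to 0.77 for *Foxo1* and -0.48 to 0.28 for *Bach2*, and by LMPP label from -0.25 to 0.43 for *Foxo1*, -0.11 to 0.048 for *Ikzf1*, -0.88 to 0.45 for *Il7r*, -0.88 to 0.50 for *Bach2* and -0.81 to 0.68 for *Irf4*. For *Ikzf1* in LMPPs split by *Pcgf1* exon reads it ran from -0.11 to 0.037. Without the 3′ row *Foxo1* was at -0.058 in IdHPCs, *Il7r* at 0.18 by LMPP label, and *Ikzf1* at 0.01 in the split by exon reads. *Irf4* by LMPP label was 0.0056 with edgeR exactTest, 0.014 with its quasi-likelihood test and 0.0057 with DESeq2. Of the other named genes, IdHPC values ran from -0.32 to 0.16 for *Myb*, -0.11 to 0.26 for *Sesn1*, -0.30 to 0.17 for *Ctnnb1* and -0.091 to 0.20 for *Sdc1* with 1 library left out, and were -0.12 for *Socs2*, -0.019 for *Sesn1* and -0.15 for *Sdc1* without the 3′ row. Among called genes of the lists in the split by exon reads, *Irf1* lost its call whichever library was left out, *Socs2* without labelled *Pcgf1*-KO 1, control 2 or *Pcgf1*-KO 2, *Cd22* without *Pcgf1*-KO 1 or control 2, *Tcf7l1* without control 1 or control 2, *Ikzf2* and *Irs2* without control 2, and *Socs1* without *Pcgf1*-KO 2. In IdHPCs *Mef2c* and *Igj* passed without *Pcgf1*-KO 1 (adjusted p = 0.0262 and 0.0474, limma). The cause of these changes was not tested. Rescaling moved none of the 28 mean levels of the members by more than 1 SD.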
